A study of Mus musculus with 3 samples.

Results

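Cell cycle genes and their inhibitors were described in glomeruli, the capillary filters of the kidney, of 3 FVB/NJ males without diabetes, 8 weeks old, each hybridised to its own Affymetrix Mouse 430.2 array (n = 3). The members are 52 genes listed by symbol: cyclins, cyclin-dependent kinases (CDKs), CDK inhibitors, pocket proteins, E2F factors, replication and mitosis genes, and checkpoint genes. Of these, 50 were read by 112 probe sets that carry that gene's symbol alone, out of 18194 genes and 45101 probe sets on the array. The 2 members named by no such probe set are Ccnb1 and Trp53. All 3 mice ate Purina diet 5053 and lived in a 12-hour light-dark cycle, and no genotype, drug or time separates them. RNA came from about 1000 isolated glomeruli per mouse, so each value mixes podocytes, endothelial cells, mesangial cells and whatever tubule or blood cells came along. In such bulk RNA, fewer cells of a type and less RNA per cell cannot be told apart. The series was set up around diabetic OVE26 mice, and those were not analysed here. With 1 group, the results below compare mice with each other and with background.

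A cell enters the cycle when D-type cyclins with CDK4 and CDK6, and then E-type cyclins with CDK2, phosphorylate the retinoblastoma family of pocket proteins and release E2F factors, which switch on genes for DNA synthesis. Cyclin A and cyclin B with CDK1 then carry the cell through mitosis. INK4 proteins bind CDK4 and CDK6, and CIP/KIP proteins bind a wider range of cyclin-CDK complexes. The mature podocyte is known as a cell that has left the cycle, and p57, the product of Cdkn1c, is a standard marker of that state.

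Each value is a log2 expression value made with GCRMA, and each error is the SD of the 3 mice. Where a gene had several probe sets, the one with the highest mean stands for it. Background on each array is the 95th percentile of 80 odorant and vomeronasal receptor probe sets, which gave 2.58, 2.91 and 2.86 for mice 1, 2 and 3. The lower threshold of mouse 1 lets dimmer probe sets count as detected there. Because each probe set hybridises with its own strength, values were compared between mice and with background, and not between genes. Podocyte markers were above background on all arrays for 7 of 8 genes, endothelial markers for 10 of 10 and mesangial markers for 8 of 8. The nephrin gene Nphs1, for example, was at 11.36, 11.30 and 10.90.

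In all 3 mice, 35 of the 50 measured members exceeded background (70.0%), against 58.3% of all genes. A further 6 gave mixed calls and 9 were below background in all mice. The detected members were unevenly spread over the roles. All 4 CDKs, all 3 CIP/KIP inhibitors, all 3 pocket proteins and all 9 replication and nucleotide genes were above background, while 1 of 8 mitosis genes and 0 of 2 cyclins of the later cycle were. By the grouping the rule asks for, 6 of 7 CDK inhibitors and 11 of 20 proliferation genes (later cyclins, Cdk1, replication and mitosis genes) were detected in all mice. Nearest to the threshold on the detected side lay Cdk1, Cdkn2b and Rrm2, whose smallest margins over it were 0.07, 0.16 and 0.42. Just outside lay Top2a, Birc5 and Ccne1, at −0.18, −0.33 and −0.37.

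**Figure D1:**
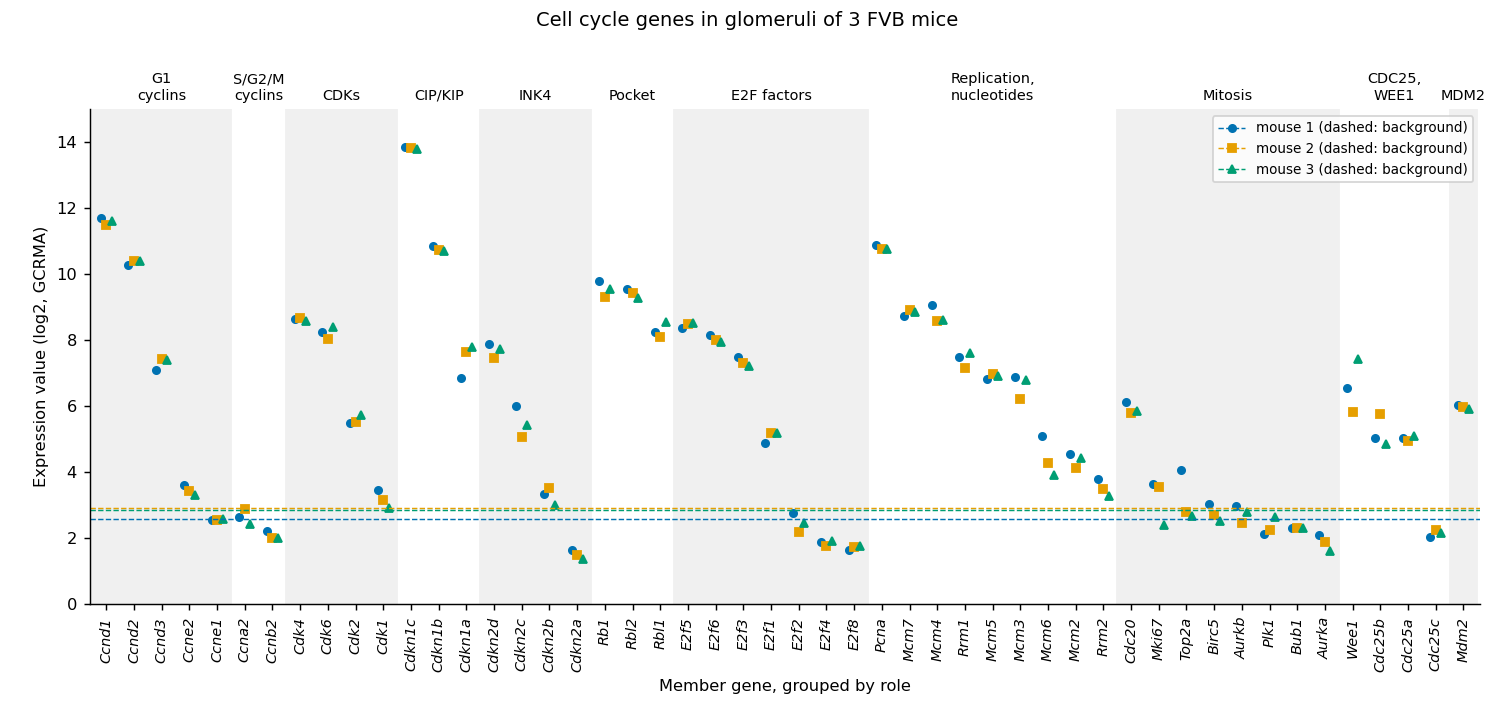
Expression values (log2, GCRMA) of the 50 members with a probe set, grouped by role, with 1 point per mouse and a dashed line for the background threshold of each array (2.58 to 2.91). CIP/KIP inhibitors, pocket proteins and replication genes lie above the lines, while of 8 mitosis genes 4 cross the lines, 3 lie below them and 1 lies above.

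**Figure D2:**
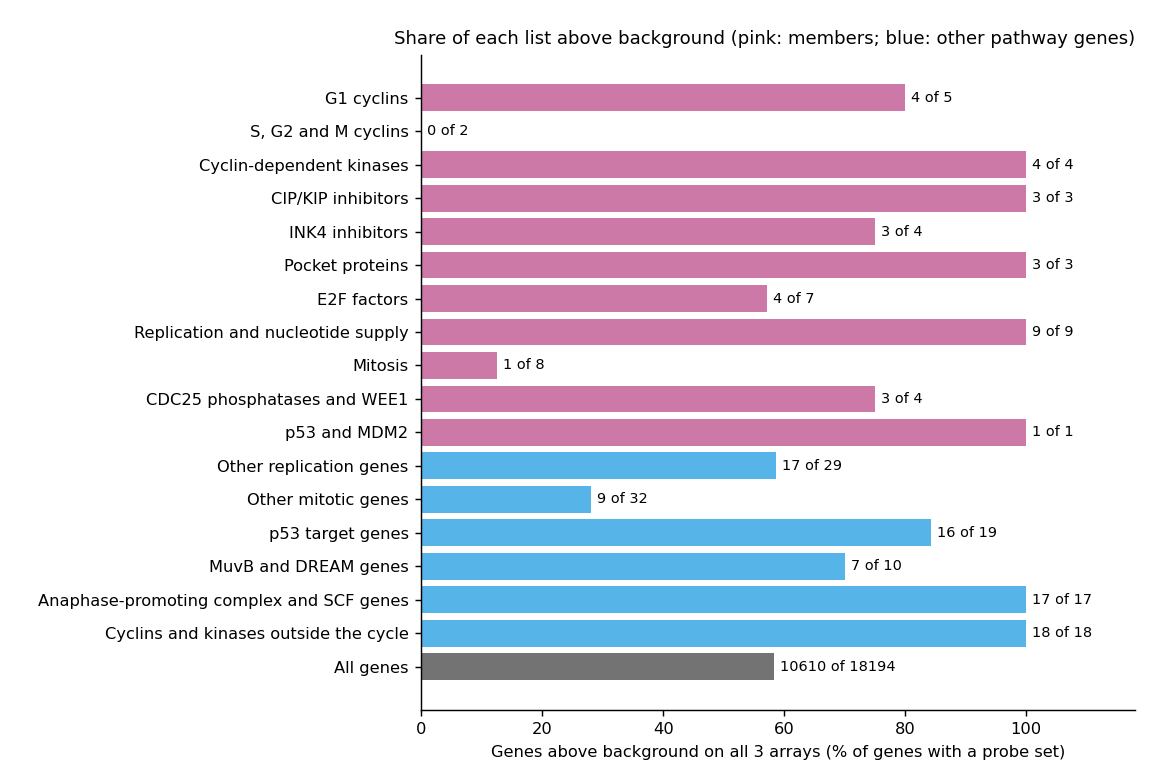
Share (percent) of measured genes that exceeded background on all 3 arrays, for each role list of the members (pink), each list of other pathway genes (blue) and all genes (grey, 58.3%). Counts stand beside the bars, from 1 of 8 for mitosis genes to 9 of 9 for replication genes.

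The CIP/KIP inhibitors were detected in every mouse, and the podocyte marker among them had the smallest range. Cdkn1c, which encodes p57, was at 13.85, 13.82 and 13.80 in mice 1, 2 and 3 (13.82 ± 0.02), a 1.03-fold range. Only 2.44% of all detected genes had a smaller SD. The highest value of any probe set was 14.66 to 14.76 on the 3 arrays, so Cdkn1c was close to the ceiling, and it had 1 probe set. Cdkn1b, which encodes p27, was at 10.84, 10.73 and 10.70 (10.76 ± 0.07). Its other probe set was far dimmer and ordered the mice the other way, at 3.37, 3.77 and 4.48, a 2.16-fold range, so the order of the mice for p27 is not settled by these arrays.

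Cdkn1a, which encodes the stress-inducible inhibitor p21, had the widest range of this family by the probe sets used. It was at 6.85, 7.65 and 7.80 (7.43 ± 0.51), low in mouse 1 and close together in mice 2 and 3, with a 1.92-fold range. The other probe set gave the same order, at 4.11, 4.80 and 5.04. Markers of tubule cells were also low in mouse 1. The median difference of that mouse from the mean of the others was −1.90 over 8 detected proximal tubule genes and −1.17 over 7 detected distal nephron genes, and 2.54 and −0.03 in mouse 3. The difference between the 3′ and 5′ control probe sets of actin, a sign of RNA quality, was 1.49, 1.81 and 2.05. For the control probe sets of Gapdh it was 0.48, 1.08 and 0.92, highest in mouse 2. The part of tubule cells and of RNA quality in the values of Cdkn1a was not tested.

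Among the INK4 inhibitors, 3 of 4 were above background. Cdkn2d, which encodes p19INK4d, was at 7.87, 7.47 and 7.73 (7.69 ± 0.20). Cdkn2c, which encodes p18INK4c, was at 5.99, 5.07 and 5.44 (5.50 ± 0.47), highest in mouse 1 and lowest in mouse 2, a 1.90-fold range read by 1 probe set. Cdkn2b, which encodes p15INK4b, was just above background at 3.33, 3.53 and 3.02. Cdkn2a, the senescence-associated locus that encodes p16INK4a and p19ARF, was below background in all mice at 1.66, 1.48 and 1.36, and its 1 probe set cannot give the products apart. Cdkn2a was thus the 1 inhibitor of 7 without a detected signal.

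The G1 machinery was present with small differences between mice. Cyclin D1, encoded by Ccnd1, was at 11.70, 11.49 and 11.62 (11.60 ± 0.11), and all 3 of its probe sets were highest in mouse 1. Ccnd2 was at 10.26, 10.40 and 10.40 (10.35 ± 0.08), and Ccnd3 at 7.11, 7.42 and 7.39 (7.30 ± 0.17). All 7 probe sets of Ccnd2 were above background, but they did not agree on which mouse was highest. The E-type cyclins, which act at the entry to S phase, were closer to background. Ccne2 was at 3.60, 3.43 and 3.31, above background in all mice with a smallest margin of 0.46. Ccne1 was below background in all mice at 2.55, 2.54 and 2.60.

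The CDKs that pair with these cyclins were detected. Cdk4 was at 8.65, 8.66 and 8.59 (8.64 ± 0.04), a 1.05-fold range. Cdk6 was at 8.25, 8.05 and 8.41 (8.24 ± 0.18), and Cdk2 at 5.51, 5.52 and 5.73 (5.59 ± 0.13). The mitotic kinase gene Cdk1 was close to background, at 3.45, 3.17 and 2.92, with its lowest value 0.07 above the threshold of mouse 3. Its SD (0.27) and range (1.45-fold) were the largest of the 4 CDKs.

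The pocket proteins, which hold E2F factors in check, were all detected. The retinoblastoma gene Rb1 was at 9.80, 9.32 and 9.54 (9.55 ± 0.24), Rbl2, which encodes the quiescence-associated p130, at 9.54, 9.42 and 9.26 (9.41 ± 0.14), and Rbl1, which encodes p107, at 8.26, 8.10 and 8.54 (8.30 ± 0.22). For Rbl2 both probe sets were highest in mouse 1 and lowest in mouse 3. Both probe sets of Rbl1 above background disagreed on the highest mouse.

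E2F factors were above background for 4 of 7 genes. Of the activators, E2f3 was at 7.48, 7.32 and 7.21 (7.34 ± 0.14) and E2f1 at 4.88, 5.18 and 5.19 (5.08 ± 0.17), while E2f2 exceeded the threshold in mouse 1 alone (2.78, 2.19 and 2.45). Of the repressors, E2f5 was at 8.38, 8.48 and 8.52 (8.46 ± 0.07) and E2f6 at 8.15, 8.00 and 7.95 (8.04 ± 0.11). E2f8, an atypical E2F of dividing cells, was below background in all mice (1.65, 1.75 and 1.76). E2f4 was below it too (1.88, 1.77 and 1.90), with 1 probe set, which does not show that its RNA was absent.

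By the probe sets used, replication genes were above background without exception, with a median SD of 0.24, against 0.17 over all detected members. For Mcm5 and Rrm2 this rests on an _x_at probe set alone, a kind that can bind other transcripts too. Their remaining probe sets were not above background in all mice. The sliding clamp gene Pcna was at 10.87, 10.77 and 10.75 (10.80 ± 0.06). The ribonucleotide reductase gene Rrm1 was at 7.48, 7.15 and 7.62 (7.42 ± 0.24), and Rrm2, its S-phase-limited partner, at 3.79, 3.48 and 3.28 (3.52 ± 0.26). The PCNA protein also serves DNA repair and Rrm1 is made outside S phase as well, so these genes do not mark division as the mitosis genes do.

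The 6 genes of the MCM helicase, which is loaded at origins before replication, did not share 1 pattern over the mice. Mcm6 had the widest range, at 5.11, 4.28 and 3.93 (4.44 ± 0.61, 2.27-fold), high in mouse 1. Its other detected probe set was at 4.50, 4.50 and 3.75, so both were lowest in mouse 3. Mcm3 was at 6.88, 6.21 and 6.80 (6.63 ± 0.37), and mouse 2 was lowest for all 3 detected probe sets. By another of these probe sets mouse 3 was nearly as low (4.29, 4.02 and 4.04).

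For other MCM genes the probe set decided the order of the mice. Mcm4 was at 9.08, 8.58 and 8.61 by one probe set and at 8.19, 8.30 and 8.42 by the other, highest in mouse 1 by the first and in mouse 3 by the second. Mcm7 was at 8.74, 8.92 and 8.85 (8.83 ± 0.09), and its 4 detected probe sets named 3 different highest mice. Mcm5 (6.91 ± 0.08) and Mcm2 (4.36 ± 0.22) complete the complex. The value of Mcm5 comes from an _x_at probe set. Its other probe sets were at 2.91, 2.46 and 2.90, below background in mouse 2, and at 2.07, 2.48 and 2.54, below it in all mice. Of the 9 replication genes, 6 are represented by a probe set whose name ends in _x_at or _s_at, which can bind other transcripts too. Over all members, 20 had more than 1 probe set above background, and for 7 of these every such probe set was highest in the same mouse. The same share over all genes was not computed, so these counts do not set the members apart.

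**Figure D3:**
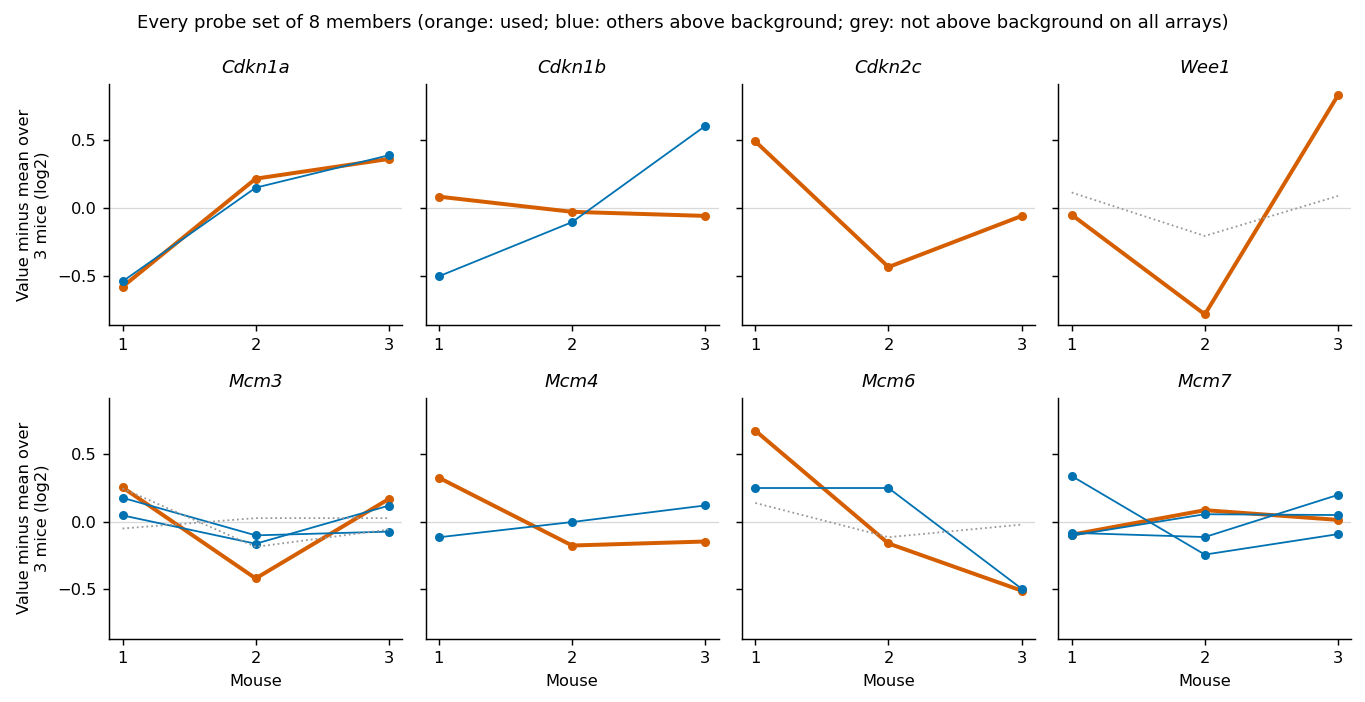
Each probe set's value minus its own mean over the 3 mice (log2), for 8 members: the probe set used (orange), others above background on all arrays (blue) and those that were not (grey, dotted). The lines of Cdkn1a run together, while those of Cdkn1b, Mcm4 and Mcm7 cross.

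Mitosis genes were mostly at the background, and where they exceeded it they did so in mouse 1. Top2a, the topoisomerase of dividing cells, was at 4.07, 2.80 and 2.67, above background in mouse 1 alone. Another of its probe sets was at 2.81, 2.81 and 2.41, nearly equal in mice 1 and 2. The remaining one was below background in all mice (1.83, 1.93 and 1.89). Mki67, which encodes the proliferation antigen Ki-67, was at 3.65, 3.56 and 2.41, above background in mice 1 and 2. The survivin gene Birc5 (3.05, 2.71 and 2.53) and the Aurora kinase gene Aurkb (2.96, 2.47 and 2.79) were above it in mouse 1 alone. The value of Aurkb comes from an _s_at probe set. Its other probe set was below background in all mice and highest in mouse 2. By the probe sets used, all 4 genes exceeded in mouse 1 even the highest of the 3 thresholds (2.91).

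The other mitosis genes and later cyclins carried no detected signal, with one exception. Aurka, Bub1 and the polo kinase gene Plk1 were below background in all mice, with means of 1.87, 2.31 and 2.34. The cyclin A2 gene Ccna2 was at 2.64, 2.87 and 2.43, above its threshold in mouse 1 by 0.05, and Ccnb2 was below background in all mice, with a mean of 2.07. Cdc20, the activator of the anaphase-promoting complex, was the exception at 6.13, 5.78 and 5.86 (5.93 ± 0.18). That value comes from an _x_at probe set. Another detected probe set of Cdc20 was at 3.37, 3.35 and 3.28, and the remaining one was below background.

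Promoters of these genes are known for a few short elements. The cell cycle homology region (CHR) binds the DREAM complex in resting cells and its MuvB relatives in mitosis, CCAAT boxes bind NF-Y, and E2F sites bind E2F factors. The 200 bases before the start are shown for Cdk1, Top2a, Mki67 and Mcm6, and for the inhibitor gene Cdkn1b. By the probe sets used, Cdk1, Top2a, Mki67 and Mcm6 were highest in mouse 1 and lowest in mouse 3. The choice was made after the values were seen. The letters are from RefSeq (GRCm38.p6), 5′ to 3′ on the gene's strand, with capitals marking matches on either strand. CHR words are TTTGAA or TTTAAA, the CCAAT box is CCAAT, E2F words are TTTGGCG or TTTCCCG or TTTGCCG or TTTCGCG, and the E-box is CACGTG.
Cdk1, chr10:69352913-69353112, minus strand: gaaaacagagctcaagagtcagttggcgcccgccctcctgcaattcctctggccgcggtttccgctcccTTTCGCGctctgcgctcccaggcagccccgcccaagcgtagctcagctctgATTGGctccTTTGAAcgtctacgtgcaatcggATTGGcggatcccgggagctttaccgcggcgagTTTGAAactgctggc
Top2a, chr11:99024190-99024389, minus strand: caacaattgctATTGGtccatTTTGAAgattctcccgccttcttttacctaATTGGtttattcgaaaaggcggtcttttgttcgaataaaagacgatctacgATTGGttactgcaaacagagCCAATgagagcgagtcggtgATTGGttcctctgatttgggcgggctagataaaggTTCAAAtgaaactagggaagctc
Mki67, chr7:135716380-135716579, minus strand: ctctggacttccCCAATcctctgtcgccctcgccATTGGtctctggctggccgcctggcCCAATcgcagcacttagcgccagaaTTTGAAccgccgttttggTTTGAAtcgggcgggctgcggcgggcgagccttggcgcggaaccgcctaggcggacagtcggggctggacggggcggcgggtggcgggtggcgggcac
Mcm6, chr1:128359706-128359905, minus strand: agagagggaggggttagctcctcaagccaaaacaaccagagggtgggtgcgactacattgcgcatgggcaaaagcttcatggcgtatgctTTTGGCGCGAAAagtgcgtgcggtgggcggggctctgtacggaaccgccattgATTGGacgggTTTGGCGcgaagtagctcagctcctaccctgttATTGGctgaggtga
Cdkn1b, chr6:134920201-134920400, plus strand: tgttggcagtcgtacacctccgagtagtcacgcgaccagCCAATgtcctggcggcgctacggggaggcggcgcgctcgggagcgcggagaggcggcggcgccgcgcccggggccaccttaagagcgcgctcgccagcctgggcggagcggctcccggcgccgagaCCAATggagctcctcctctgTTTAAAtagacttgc

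The mitotic promoters carried CHR words with CCAAT boxes, and the MCM promoter carried E2F words. Cdk1 had 2 CHR words, 2 CCAAT boxes and 1 E2F word in this stretch, Top2a had 2 CHR words and 5 CCAAT boxes, and Mki67 had 2 and 3. Mcm6 had 3 E2F words, of which 2 overlap each other, and 2 CCAAT boxes. Cdkn1b had 1 CHR word and 2 CCAAT boxes, and no match to 1 kind of motif overlapped a match to another in these 5 stretches. In windows from 250 bases before to 50 after the start, 40 of 52 members matched an entry by symbol. A CCAAT box was found for 17 of 18 proliferation genes (94.4%), against 37.9% of 27025 genes. CHR words were found for 12 of 18 (66.7%, against 27.8%) and E2F words for 6 of 18 (33.3%, against 6.85%). Among 6 CDK inhibitors, 2 had a CHR word, 2 a CCAAT box and 1 an E2F word. E-boxes were found in 0 of 18 and 0 of 6 (7.24% of all). A match is a run of letters and not a measured binding site.

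The genes that gate entry to mitosis were detected apart from Cdc25c, and they held the widest range of all members. Wee1, the kinase that restrains CDK1, was at 6.56, 5.82 and 7.44 (6.61 ± 0.81), highest in mouse 3 and lowest in mouse 2, a 3.07-fold range. Its other probe set was not above background in all mice (2.65, 2.33 and 2.63) and was also lowest in mouse 2. Proximal tubule markers were highest in mouse 3 too, with 7 of 8 detected genes highest there, but their lowest mouse was mouse 1 for 8 of 8. Their part in the values of Wee1 was not tested.

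The CDC25 phosphatases remove the mark that WEE1 adds. Cdc25b was at 5.03, 5.77 and 4.85 (5.22 ± 0.49), high in mouse 2 and 1.90-fold in range, with 1 probe set. Cdc25a was at 5.04, 4.95 and 5.09 (5.03 ± 0.07), with the same highest and lowest mouse as Wee1 over a 1.11-fold range. Its other detected probe set was at 4.58, 4.60 and 4.88, also highest in mouse 3 but lowest in mouse 1. Cdc25c was below background in all mice at 2.02, 2.26 and 2.16. Mdm2, which encodes the ubiquitin ligase of p53 and is itself a p53 target, was at 6.03, 5.97 and 5.91 (5.97 ± 0.06), a 1.09-fold range. Its other detected probe set was at 4.44, 4.33 and 4.53, highest in mouse 3 and lowest in mouse 2.

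The members' differences between mice were close to those of all detected genes. Of the 35 detected members, 29 had a range under 1.5-fold, against 81.9% of all detected genes, and 13 a range under 1.2-fold, against 43.6%. A range of at least 2-fold was found for 2 of 35, Wee1 and Mcm6, against 5.94% of all detected genes. Leaving out mouse 1 or mouse 2 left 1 such member and leaving out mouse 3 left 0, and with the mean over each gene's probe sets there were 0. The median SD was 0.17 over detected members and 0.16 over all 10610 detected genes, and without mouse 1 these became 0.10 and 0.13.

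Whether any member varied more than genes of like level was tested with limma, by setting each variance against the scaled F distribution fitted over all detected genes, one-sided, with Benjamini-Hochberg adjustment. The test called 0 of 35 members and 0 of 10610 genes (0%). At an unadjusted p under 0.05 it found 1 of 35 members and 4.65% of genes. That member was Wee1, with an unadjusted limma p of 0.027 and an adjusted limma p of 0.93, and leaving out each mouse or changing the settings gave 0 members throughout. With 2 degrees of freedom per gene, the absence of calls says nothing about stability.

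**Figure D4:**
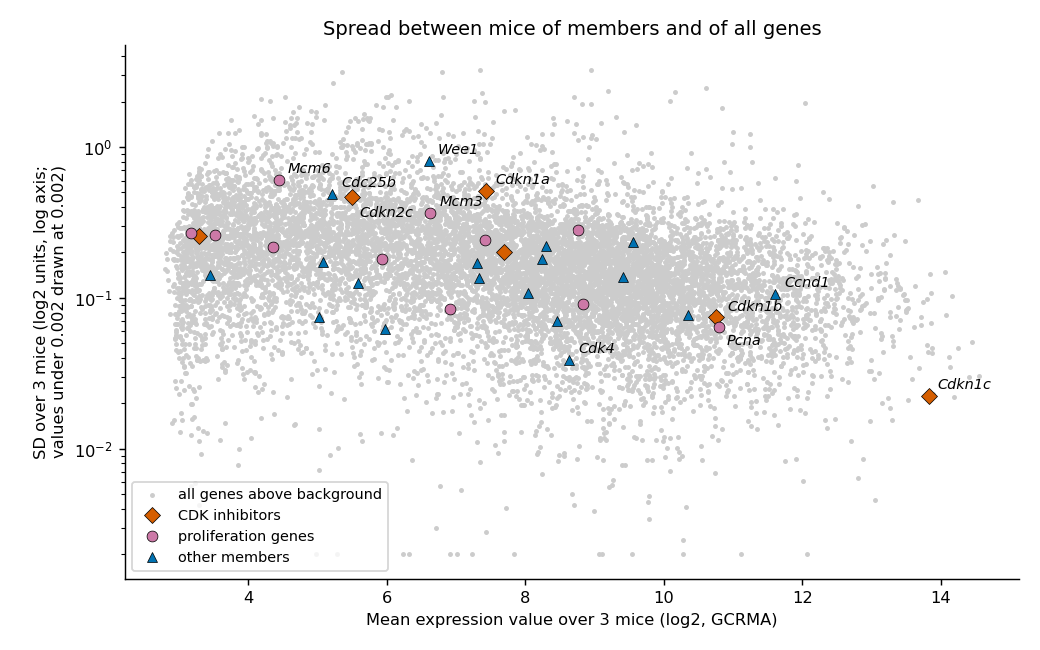
SD over 3 mice (log2 units, log axis) against mean value (log2, GCRMA) for 10610 genes above background (grey), with CDK inhibitors, proliferation genes and other members marked. Wee1 (0.81) and Mcm6 (0.61) lie high, and Cdkn1c (0.02) lies at the low edge of the cloud.

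Proliferation genes and CDK inhibitors were next set side by side by mouse. Of 11 detected proliferation genes, 8 were highest in mouse 1, 2 in mouse 2 and 1 in mouse 3, where 34%, 28.2% and 36.3% of all detected genes were highest. Their median difference from the mean of the other mice was 0.31 in mouse 1, −0.21 in mouse 2 and −0.07 in mouse 3, against 0.00, −0.02 and 0.01 over all genes. Without the filter, 14 of 20 were highest in mouse 1, against 35.2% of all genes. The value in mouse 1 was 0.12 without mouse 2, 0.32 without mouse 3, 0.14 with the mean over probe sets and 0.26 without _x_at and _s_at probe sets. In mouse 2 it was 0.02 without mouse 1 and −0.32 without mouse 3.

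The CDK inhibitors were also most often highest in mouse 1, with smaller median differences. Of 6 detected, 4 were highest in mouse 1, 1 in mouse 2 and 1 in mouse 3. Among all detected genes the shares were 34%, 28.2% and 36.3%. The 4 include Cdkn1c, with a 1.03-fold range, and Cdkn1b, whose probe sets disagreed. Without the filter 5 of 7 were highest in mouse 1, with Cdkn2a below background in all mice, against 35.2% of all genes. The median differences of the detected inhibitors were 0.09, −0.02 and −0.06. The median in mouse 1 ran from 0.05 to 0.14 over the alternatives, and that in mouse 3 was 0.06 once mouse 1 was left out. The members did not move as 1 unit, since Cdkn1a was lowest in mouse 1 by 0.87 and Cdkn2c highest there by 0.74. The difference between the 2 lists was not tested, since only 3 mice were available and genes are not replicates.

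Markers of leukocytes, which can divide and carry such transcripts, had the same highest mouse. Of 13 measured leukocyte genes, 9 exceeded background in every mouse. Mouse 1 was highest for 8 of these 9, and mouse 3 lowest for 8. Their summed level (log2 of the summed linear values) was 10.67, 9.79 and 8.94. The adaptor gene Tyrobp was at 6.78, 4.79 and 3.36, and the pan-leukocyte phosphatase gene Ptprc at 7.43, 6.58 and 5.13. The T cell gene Cd3e, the macrophage gene Cd68 and the integrin gene Itgam were below background in all mice. Of 10 endothelial markers, 7 were highest in mouse 1 as well, by a median of 0.17. The part of these cells in the proliferation genes was not tested.

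**Figure D5:**
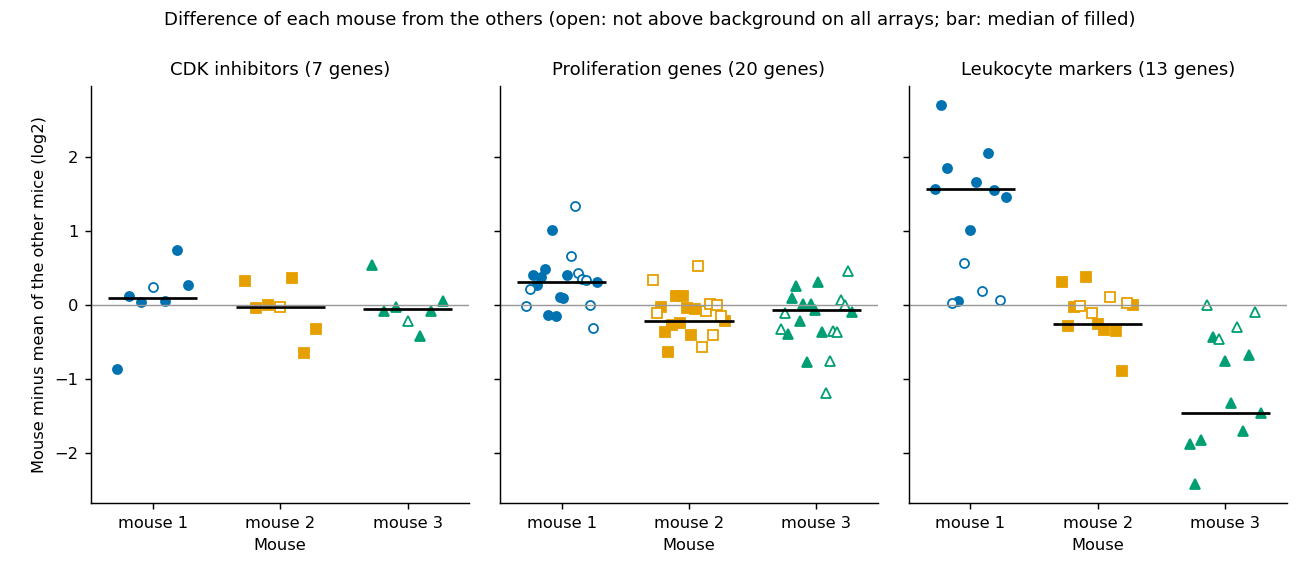
Difference of each mouse from the mean of the other mice (log2) for CDK inhibitors, proliferation genes and leukocyte markers, with filled points for genes above background on all arrays, open points for the rest and a bar at the median of the filled points. In mouse 1 the medians were 0.09, 0.31 and 1.57.

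Of 125 measured genes of the same pathways outside the list, 84 were detected (67.2%, against 58.3% of all genes). A 2-fold range was found for 6 of the 84, against 5.94% of all detected genes. Here too the mitotic genes were detected least. Of 32 other mitotic genes, 9 exceeded background in every mouse and 15 in no mouse, among them the kinesin genes Kif20a and Kif2c and the checkpoint kinase gene Ttk. The 9 included the centromere histone gene Cenpa (6.35, 6.81 and 5.57), the CDK subunit gene Cks1b (8.40, 8.13 and 7.56) and the exchange factor gene Ect2 (3.32, 3.23 and 3.95). Of these 9, 5 were highest in mouse 1, 2 in mouse 2 and 2 in mouse 3. The shares over all detected genes were 34%, 28.2% and 36.3%.

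Among other replication genes, 17 of 29 were detected (58.6%), close to the 58.3% of all genes. A 2-fold range was found for 4 of the 17, against 5.94% of all detected genes. Geminin, encoded by Gmnn, which blocks a second round of origin licensing, was at 7.85, 6.19 and 6.93, a 3.18-fold range. The gene of its target, the licensing factor Cdt1, was at 5.92, 4.85 and 5.36. Both were highest in mouse 1 and lowest in mouse 2, and 14 of the 17 genes were lowest in mouse 2, against 34.5% of all detected genes. Dbf4, the activator of the CDC7 kinase, was at 4.75, 4.45 and 5.80, and the single-strand binding gene Rpa2 at 4.92, 5.13 and 5.94, both highest in mouse 3. The loading gene Cdc6 and the thymidine kinase gene Tk1 were below background in all mice.

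The remaining lists were detected in 70% to 100% of their measured genes, against 58.3% of all genes. The anaphase-promoting complex and SCF ubiquitin ligases, which also act in resting cells, were above background for 17 of 17 genes, with a median SD of 0.12. Cyclins and kinases that act in transcription or other processes were so for 18 of 18, with a median SD of 0.15. Of p53 target genes 16 of 19 were detected, and 0 of the 16 had a 2-fold range, against 5.94% of all detected genes. Gadd45a, a growth arrest gene, was at 10.92, 11.52 and 11.04, and the p53 inhibitor gene Mdm4 at 7.84, 8.56 and 7.84, both highest in mouse 2. Of the MuvB and DREAM genes 7 of 10 were detected, with the MuvB subunit gene Lin9 at 5.17, 4.75 and 5.98. The division-specific partners of MuvB, Mybl2 and Foxm1, were below background in all mice.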

How the data were processed

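Total RNA from isolated glomeruli was amplified with a 3′ IVT kit, biotin-labelled and hybridised to Affymetrix Mouse 430.2 arrays, with an RNA integrity score above 8, per the labels' protocols. The deposited log2 values were made by the authors with GCRMA, which corrects background by probe sequence, per the submitters' processing notes (log2 from the range of the values). The version of GCRMA and the set of arrays normalised together were not stated. GCRMA compresses dim values and can give ties, as for Bub1. Gene symbols came from the array's annotation, where 34958 probe sets had 1 symbol and 932, not used, had several. There were 0 unused columns of per-sample values. No further normalisation was applied.

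A gene was called detected above the 95th percentile of 80 receptor probe sets on all 3 arrays. Excess variance was tested with limma 3.58.1 in R 4.3.3 (trend and robust prior, adjusted p threshold 0.05) and the script was tested on simulated data. The labels do not say more of the replicates than that they are separate mice, and signal over background and the 3 arrays limit precision. Named genes were all members, with values for every CDK inhibitor, the 10 largest SDs, any 2-fold range, up to 3 others per role list and those nearest the threshold, and for other lists up to 3 genes with the largest SD, besides genes below background named as examples after their values were seen. The members and lists were chosen with earlier results of these data known. Alternatives were other probe set, background, filter, normalisation and prior choices, and leaving out each mouse. Exclusion of _x_at and _s_at probe sets was added after seeing the data.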

Additional observations from a re-analysis of the deposited data

How the results depend on the processing

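The number of detected members was 31 to 41 over the alternatives (35 as reported), lowest with the 99th and highest with the 90th percentile of the receptor probe sets as background. Without _x_at and _s_at probe sets it was 33, with Mcm5 and Rrm2 lost. The number of members with a 2-fold range (2 as reported) was 4 with the 90th percentile, 4 with no filter on low values, 0 with the mean over probe sets, 1 without _x_at and _s_at probe sets, and 0 to 1 when 1 mouse was left out. The looser filters add Mki67 and Top2a. For a given probe set, a range over 2 mice cannot exceed the range over 3, so leaving out a mouse can only narrow it. The probe sets of Wee1 (1.25-fold) and Mcm6 (1.67-fold and 1.19-fold) that were not used had narrower ranges. The one used for Mcm6 is an _x_at probe set. Over all genes the number with a 2-fold range was 319 to 371 with 1 mouse left out, against 630. The excess variance test called 0 members under every alternative run. The median differences of proliferation genes and CDK inhibitors moved by less than the median SD of their genes over mice (0.24 and 0.23) in the alternatives run, but signs turned. For proliferation genes, mouse 2 went from −0.21 to 0.02 without mouse 1, and mouse 3 from −0.07 to 0.01 with the 99th percentile as background and 0.02 with the mean over probe sets. For CDK inhibitors, mouse 3 went from −0.06 to 0.06 without mouse 1 and 0.01 with the mean over probe sets. No paired analysis was possible because all 3 mice belong to 1 group. Dim values near the threshold limit what can be said of Cdk1 and Cdkn2b, and of mitosis genes such as Top2a and Birc5.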

Other observations

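Wee1 is known as a target of the circadian clock in liver, and its values were set beside those of clock genes after they had been seen. Per2, a clock gene of the negative limb, was at 8.25, 7.22 and 9.25 (mice 1 to 3), and Wee1 was at 6.56, 5.82 and 7.44, with the same highest and lowest mouse. Per1 (8.34, 9.66 and 9.27) and the clock output gene Dbp (12.94, 12.41 and 12.44) had other orders. With 3 mice no relation between these genes can be tested, and the labels state no hour of tissue collection.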
